A study of Mus musculus with 3 samples.

Results

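The hepatic transcript profile of apolipoprotein E-deficient mice fed c9,t11-conjugated linoleic acid was set against that of the same strain fed linoleic acid. The comparison used 2 of the 3 arrays of the study, 1 per diet, and each difference is the log2 ratio of the c9,t11-CLA signal over the control signal. A gene was counted as measured when its probe set lay above a floor on both arrays, the floor being 490.3, the median of all signals of the 3 arrays pooled. This rule kept 4324 of the 8251 genes that could be named. A further 611 genes lay above the floor on the c9,t11-CLA array alone, 378 on the control array alone, and 2938 on neither.

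All animals were male homozygous apoE knockout mice on a C57BL/6JxOLA129 background, a strain prone to high plasma cholesterol and atherosclerosis, and 3 months old at the start. No wild-type liver was included, so the knockout is common to both diets and every difference below was measured on that background. The diets were fed for 12 weeks with fat at 30% of energy. The control diet held linoleic acid at 1.0% by weight, and in the CLA diets an equivalent amount of the c9,t11 or the t10,c12 isomer took its place. The design text describes semi-purified diets while the sample labels name a western diet, and the sources used here do not settle which it was. The 29 mice were divided into 10 on control, 9 on t10,c12-CLA and 10 on c9,t11-CLA. Each array received cRNA made from 8 µg of liver RNA, and the sources used here do not say if it came from 1 mouse or from several pooled. With 1 array per diet no difference has a replicate check and no test between diets was possible, so the sizes below describe these arrays.

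Conjugated linoleic acids are linoleic acid isomers whose double bonds alternate directly with a single bond instead of being parted by a methylene group, and c9,t11-CLA is the main form in milk and ruminant fat. In the liver, fatty acids and their acyl-CoA derivatives are ligands of the nuclear receptor PPARA, which acts with RXR at direct repeats of a hexamer and switches on omega-hydroxylation, peroxisomal and mitochondrial beta-oxidation, and carnitine transport. The acute phase response is a second large liver programme, in which interleukin-6 and interleukin-1 act through STAT3 and C/EBP factors to raise secretion of serum amyloids, haptoglobin, fibrinogen and other plasma proteins.

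The spread of a single log2 difference was taken from 529 pairs of probe sets for the same gene, which gave an SD of 0.49, and of 0.44 in the brightest group of pairs. This yardstick holds measurement error and probe design, not the variation between mice. The c9,t11-CLA array had the higher median signal, 524 against 457 on control, although the trimmed mean was equal at 1501. Among the brightest genes it also lay higher: of 74 genes with a mean signal above 40000, 67 had a log2 difference above 0, with a median of 0.48. The CreX bacterial spike controls, which contain no mouse RNA, were brighter there than on control, by 1.73 and 2.12 times. The other 7 spike probe sets were between 1.02 and 1.76 times as bright as on control. Array probe sets for 18S ribosomal RNA also differed, with 484, 2017 and 494 for its 5′ part and 99.8, 989 and 101 for its middle on control, on c9,t11-CLA and on t10,c12-CLA, while its 3′ part gave 2309, 2640 and 1226. For beta-actin the 3′ probe set was 1.40, 1.89 and 1.35 times as bright as the 5′ one in the same order, and for Gapdh 1.06, 0.98 and 0.78 times, a ratio that grows when RNA is degraded. The part of these array differences in the results was not tested.

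A difference of 2-fold or more was counted. It was reached upward on c9,t11-CLA by 129 genes, 2.98% of those measured, and downward by 120, 2.78%. A 4-fold difference was reached by 9 genes upward and 7 downward. The median log2 difference was 0.02, with quartiles at -0.30 and 0.36, and 52.2% of the measured genes lay above 0. When the arrays were set to equal medians instead, the split became 74 higher and 234 lower, and the median of all measured genes fell by 0.18, so that gene list medians close to 0 carry no direction. Just past the 2-fold limit lay Mug-ps1, with 32952 on control and 65910.3 on c9,t11-CLA, and Arf4, with 3914 and 1956. Just short of it lay Folr1, with 512 and 1020.3, and Dusp6, with 3776 and 1892. At the floor, Bzw2 was kept with a control signal of 490.6 and Zc3hc1 with one of 491.1. Pkp1 was left out with a control signal of 490.1, and Hes2 with 490.2 on c9,t11-CLA and 585.7 on control.

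**Figure D1:**
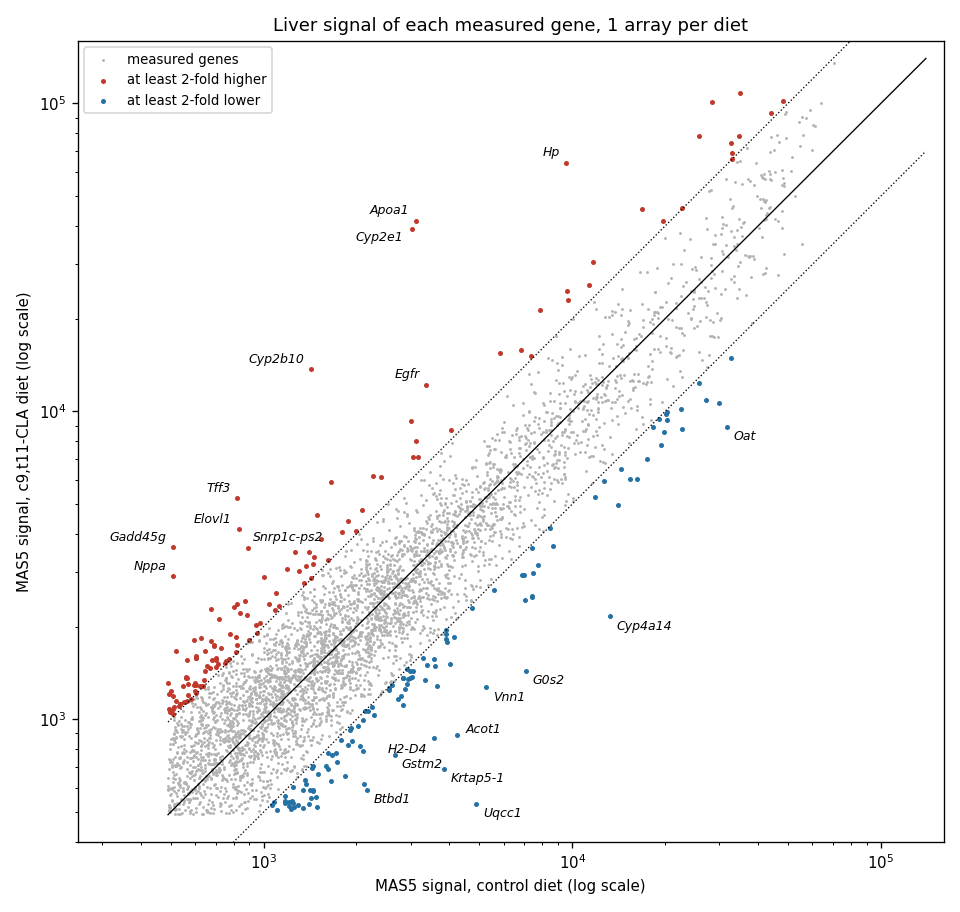
MAS5 signal of each measured gene on the control array (x axis, log scale) and the c9,t11-CLA array (y axis, log scale), 1 point per gene, with the line of equality and dotted lines at 2-fold. The 129 red genes lie above the upper dotted line and the 120 blue genes below the lower one, and the labelled genes are the 10 with the largest difference in each direction whose brighter signal was at least 2 times the floor.

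Genes of fatty acid oxidation had lower signals on c9,t11-CLA than on control. Of 21 measured genes of peroxisomal and omega-oxidation, 9 were at least 2-fold lower, none was 2-fold higher, and the median log2 difference was -0.67 against 0.02 over all measured genes. Of 18 genes of mitochondrial beta-oxidation and carnitine transport, 5 were at least 2-fold lower, none was 2-fold higher, and the median was -0.59. The 2 lists together held 39 of the 4324 measured genes and 14 of the 120 that were 2-fold lower. Over all measured genes, 2.78% were at least 2-fold lower.

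Omega-oxidation, which starts the breakdown of a fatty acid from its methyl end, included the widest gap of the group. Cyp4a14, a fatty acid omega-hydroxylase, gave 13225 on control, 2161 on c9,t11-CLA and 15776 on t10,c12-CLA. The c9,t11-CLA signal stood apart from both others. Its relative Cyp4a10 gave 20114, 9794 and 15310.4 in the same order, with a probe set marked for possible cross-hybridisation between family members. A further relative, Cyp4a12b, differed little, with 24856, 21955 and 24597 and a log2 difference of -0.18. Aldh3a2, the fatty aldehyde dehydrogenase that acts on the products of this pathway but lies outside the list, gave 16279, 6021 and 21390.0. A second probe set of Aldh3a2 had a smaller log2 difference from control, -0.46 against -1.43.

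Peroxisomal enzymes shorten very long and branched fatty acids, and most of them followed. The bifunctional enzyme Ehhadh gave 3637 on control and 1284 on c9,t11-CLA, the dienoyl-CoA isomerase Ech1 19395 and 7786, and the enoyl-CoA isomerase Eci2 12672 and 5965. Pex11a, which drives the division of peroxisomes, gave 8687 on control, 3659 on c9,t11-CLA and 19301 on t10,c12-CLA. For Pex11a the c9,t11-CLA array was thus the lowest and the t10,c12-CLA array the highest of the 3. The carnitine acetyltransferase Crat gave 2838, 1362 and 4061. Acaa1b, the peroxisomal thiolase, had a log2 difference of -0.67, and Hsd17b4, the D-bifunctional enzyme, one of -0.84.

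Not all peroxisomal genes were lower. Catalase, Cat, which removes the hydrogen peroxide made by peroxisomal oxidases, had a log2 difference of -0.01. Phyh, the hydroxylase that begins phytanic acid breakdown, gave 60225 on control and 84874 on c9,t11-CLA, and Pxmp2, a peroxisomal membrane channel, 28987 and 35065. These were the only 2 of the 21 genes above 0. Outside beta-oxidation, the acyl-CoA thioesterase Acot1 gave 4243, 891 and 4387 on control, on c9,t11-CLA and on t10,c12-CLA, and Vnn1, a pantetheinase of coenzyme A turnover, 5274, 1270.1 and 7533. In both, the control and t10,c12-CLA arrays lay well above the c9,t11-CLA array.

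In mitochondria the lower signals fell on particular steps. Etfdh, which hands electrons from acyl-CoA dehydrogenases to ubiquinone, gave 7429.6 on control, 2493 on c9,t11-CLA and 5189 on t10,c12-CLA. Hadh, the dehydrogenase of the third step of the cycle, gave 22666, 8761 and 14511. Decr1, needed for polyunsaturated chains and their conjugated intermediates, gave 7735, 3182 and 4536. The c9,t11-CLA array was the lowest of the 3 for each of these genes, with t10,c12-CLA between it and control.

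Carnitine supply and exchange were also lower. The acylcarnitine carrier Slc25a20 gave 17480.4 on control and 6993 on c9,t11-CLA, and the carnitine importer Slc22a5 gave 1251 and 521, the latter close to the floor. The carnitine palmitoyltransferases on either side of the inner membrane did not share this: Cpt1a, which sets the rate of fatty acid entry, had a log2 difference of 0.17 and Cpt2 one of 0.14. Among the acyl-CoA dehydrogenases, which open the cycle, the medium-chain enzyme Acadm stood at -0.72, the long-chain enzyme Acadl at -0.62 and the short-chain enzyme Acads at -0.26. The thiolase Acaa2, the last step, gave 46918 on control and 75185 on c9,t11-CLA, the highest log2 difference of the list at 0.68. Pdk4, a kinase that restrains pyruvate oxidation and a known PPARA target, differed little, with 806 and 826, against 1623 on t10,c12-CLA.

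**Figure D2:**
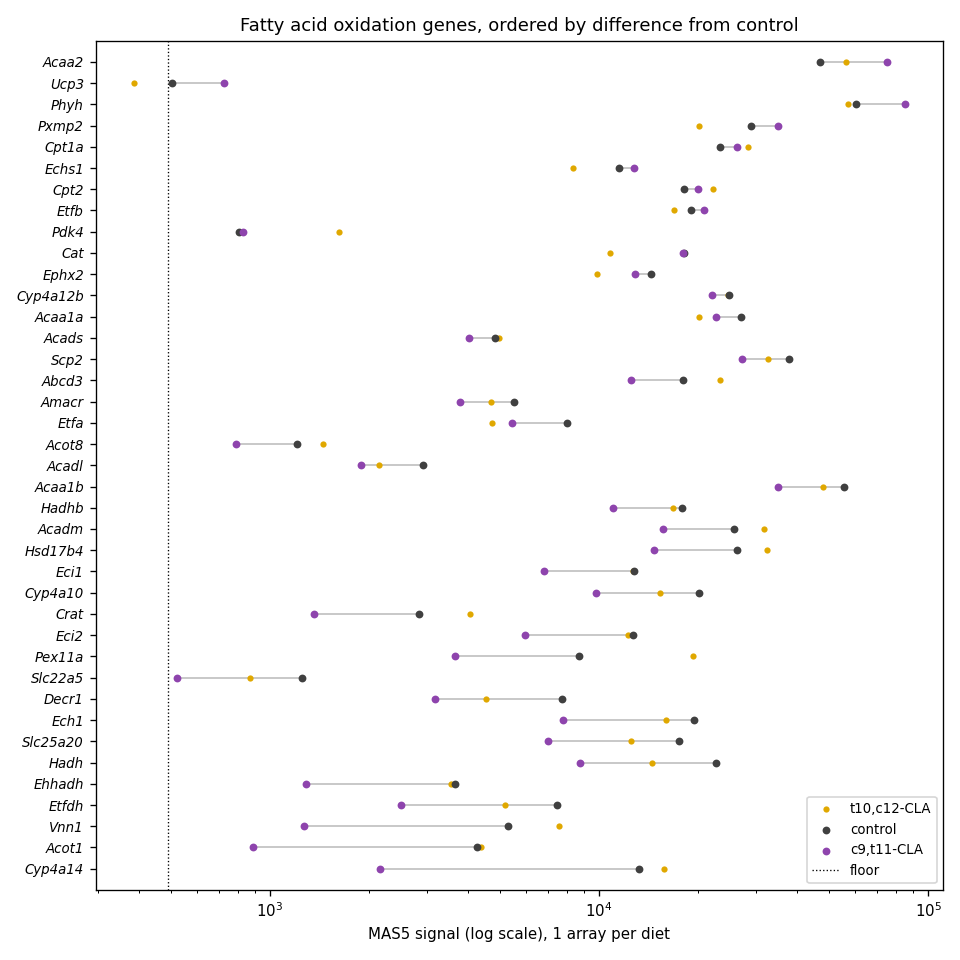
MAS5 signal (x axis, log scale) of the 39 measured fatty acid oxidation genes on each of the 3 arrays, 1 point per array, ordered by the log2 difference of c9,t11-CLA from control, with the floor dotted. The purple c9,t11-CLA points lie left of the black control points from Cyp4a14 to Cat, and right of them in the 9 genes at the top.

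PPARA binds with RXR to 2 copies of AGGTCA spaced by 1 base, the DR1 element. RefSeq promoter windows of build GRCm38.p6, from 250 bases before to 50 bases after the gene start, were searched for this element on both strands with up to 2 mismatches, and a match is a description of the letters, not a binding site. Of the 39 oxidation genes, 27 had a single window, and 5 windows held a match, 18.5%, against 3.68% of 2801 measured genes and 3.84% of all 22862 windows. The peroxisomal and omega-oxidation list was drawn up around PPARA targets, and both lists hold pathways known to respond to PPARA. This share therefore describes the genes and not the diet. The matches are shown with 10 bases on either side, 5′ to 3′ along the gene strand, with the matched bases in capitals. The gene strand is minus for Cat, Echs1 and Etfa and plus for Slc25a20 and Ucp3, and in Etfa the element reads on the opposite strand of the gene.
Cat, chr2:103485335-103485367: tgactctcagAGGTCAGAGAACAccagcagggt
Echs1, chr7:140116482-140116514: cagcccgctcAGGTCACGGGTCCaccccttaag
Etfa, chr9:55512298-55512330: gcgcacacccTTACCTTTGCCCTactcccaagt
Slc25a20, chr9:108662132-108662164: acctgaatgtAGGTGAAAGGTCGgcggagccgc
Ucp3, chr7:100472930-100472962: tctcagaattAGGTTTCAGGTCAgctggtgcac
Only Slc25a20 among these was at least 2-fold lower, with a log2 difference of -1.32, followed by Etfa, the alpha subunit of the electron transfer flavoprotein, at -0.56. Cat stood at -0.01, the enoyl-CoA hydratase Echs1 at 0.15, and Ucp3, a mitochondrial carrier, at 0.52 with signals of 506 and 725 close to the floor. The genes with a match thus spanned the range from well below 0 to above it. Among all genes with a single window, 5 of 82 that were 2-fold lower held a DR1 match, 6.10%, and 7 of 85 that were 2-fold higher, 8.24%.

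The windows of Etfdh and Ehhadh held no match to any of the 4 motifs searched, which besides DR1 were the STAT type TTCCNGGAA, the C/EBP type TTGCGCAA with 1 mismatch allowed, and TATAAA. Acot1, the lowest oxidation gene with a window in the table, held 2 matches to the C/EBP type, in capitals in its window (chr12:84009252-84009551, plus strand).
Acot1: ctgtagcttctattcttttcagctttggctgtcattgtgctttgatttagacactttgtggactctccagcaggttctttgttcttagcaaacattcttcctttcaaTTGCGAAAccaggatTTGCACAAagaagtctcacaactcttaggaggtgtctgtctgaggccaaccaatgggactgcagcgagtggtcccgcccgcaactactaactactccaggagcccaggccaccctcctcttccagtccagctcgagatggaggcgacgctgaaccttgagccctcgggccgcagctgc

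Genes that bring fatty acids into the hepatocyte and hold them there were mixed. Of 12 measured genes of uptake, binding and activation, 1 was at least 2-fold lower, none was 2-fold higher, and the median was -0.17. Dbi, the acyl-CoA binding protein, gave 32687 on control, 14939 on c9,t11-CLA and 28668 on t10,c12-CLA. The liver fatty acid binding protein Fabp1 differed little, with 35458 and 37010.4, while its intestinal relative Fabp2 gave 5022 and 2682. Slc27a5, a bile acyl-CoA synthetase and fatty acid transporter, stood at -0.77, Slc27a2 at 0.28, and the acyl-CoA synthetases Acsl5 and Acsl4 at -0.62 and 0.70.

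Fatty acid synthesis showed no shared shift, with a median of 0.07 over 11 genes. The NADPH-producing malic enzyme Me1 was the single member past 2-fold, with 2029 on control, 951 on c9,t11-CLA and 3834 on t10,c12-CLA. Here c9,t11-CLA was the lowest and t10,c12-CLA the highest. Fasn, the fatty acid synthase, stood at 0.42, the desaturase Scd1 at 0.62, Thrsp, a lipogenic cofactor, at 0.59, and Srebf1, the transcription factor that drives the pathway, at 0.26. Enzymes that make polyunsaturated chains lay on the other side of 0, with the elongases Elovl5 and Elovl2 at -0.99 and -0.83 and the desaturase Fads1 at -0.46. Elovl1, which extends saturated and monounsaturated very long chains, gave 829.9, 4142 and 1446 on control, on c9,t11-CLA and on t10,c12-CLA. Elovl6, which extends palmitate, was above the floor on c9,t11-CLA with 768 and below it on control with 420.1, and Elovl3 ran the other way with 254 and 538.

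Genes of triglyceride turnover differed singly, and lipases lay on both sides of 0. Pnpla2, the adipose triglyceride lipase, gave 6807 on control and 15839.9 on c9,t11-CLA, 2.33-fold higher. Its inhibitor G0s2 gave 7089 and 1441, 4.92-fold lower. The t10,c12-CLA array gave 16107 for Pnpla2 and 2065 for G0s2, and it shares the control array with this comparison. Lpin1, a phosphatidate phosphatase and transcriptional coactivator, gave 3117, 7994 and 7588. The hormone-sensitive lipase Lipe stood at 0.39, the droplet protein Plin2 at -0.53, the monoglyceride lipase Mgll at -0.82, the lysosomal lipase Lipa at -0.97 and the carboxylesterase Ces1d, which mobilises stored triglyceride, at -1.03. For Ces1d another probe set differed by -0.68. Of the 15 members measured, 2 lay at least 2-fold higher and 2 lower, with a median of -0.00.

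Apoa1 and Apoa2, the main proteins of high-density lipoprotein, were both more than 2-fold higher on c9,t11-CLA. Of 16 measured apolipoprotein-list genes, 2 were at least 2-fold higher, none was 2-fold lower, and the median was 0.29, with 11 above 0. That median was 0.09 with equal array medians and 0.17 after lowess. Apoa1 gave 3111 on control, 41606 on c9,t11-CLA and 23579.5 on t10,c12-CLA. Both CLA arrays lay far above the control array for Apoa1, and no second probe set was measured. Apoa2 gave 16882, 45446 and 22433, from a probe set marked for possible cross-hybridisation, and Apoa4 gave 36735, 71489 and 39114. The signals of Apoc1, 56116 and 79262, and Apoc4, 33661 and 55471, were in the range where most genes were brighter on the c9,t11-CLA array.

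Other apolipoproteins lay on both sides of 0, all within 2-fold. Apoa5 and Apoc2, which promote lipoprotein lipase activity, stood at -0.53 and -0.57, and Apof and Apom, both carried on high-density lipoprotein, at -0.59 and -0.39. Apob, the scaffold of very-low-density lipoprotein, stood at 0.17, Clu, clusterin, at 0.51 and Apoh at -0.07. Apoe itself, disrupted in these mice, gave 6570.3 and 8695, which says nothing of the genotype without a wild-type liver. Among 15 genes of lipoprotein remodelling and uptake none reached 2-fold, and the median was -0.16, or 0.12 over the 10 genes above a floor at the 75th percentile. The paraoxonases Pon1, Pon2 and Pon3, carried on high-density lipoprotein, stood at -0.58, -0.61 and -0.74, and Lcat, which esterifies its cholesterol, at -0.60. The cholesterol exporters Abcg1 and Abca1 stood at -0.74 and -0.26, and the receptor Scarb1 at 0.40. Vldlr, the very-low-density lipoprotein receptor, was above the floor on c9,t11-CLA alone, with 977 against 333 on control and 275 on t10,c12-CLA.

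The promoter window of Apoa1 is shown because this gene had the largest difference of all (chr9:46228380-46228679, plus strand). None of the 4 motifs occurred in it, so no base is in capitals.
Apoa1: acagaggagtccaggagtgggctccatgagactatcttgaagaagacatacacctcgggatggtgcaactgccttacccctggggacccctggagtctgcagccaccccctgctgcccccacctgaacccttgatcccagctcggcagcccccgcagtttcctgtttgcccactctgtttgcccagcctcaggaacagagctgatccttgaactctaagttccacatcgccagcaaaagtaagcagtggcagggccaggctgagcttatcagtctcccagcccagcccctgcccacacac

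Cholesterol and bile acid genes differed less. None of 9 measured genes of cholesterol synthesis reached 2-fold, with a median of -0.13, which turned to 0.28 over the 14 genes above a floor at the 25th percentile and to 0.02 after quantile normalization. Hmgcs1, an early enzyme, stood at -0.29 and Fdps, a later one, at 0.82. Over 14 bile acid genes the median was -0.31. Abcc3, which exports bile acids to blood, gave 27162 on control, 10881 on c9,t11-CLA and 19577 on t10,c12-CLA. The uptake carrier Slc10a1 stood at -0.87, Nr0b2, a repressor of bile acid synthesis, at -0.59, Cyp8b1 at -0.37 and Cyp7a1, the rate-limiting enzyme, at -0.30. Cyp7b1, the oxysterol hydroxylase of the alternative pathway, ran the other way with 11297, 25809 and 3023, although a second probe set differed from control by 0.10.

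**Figure D3:**
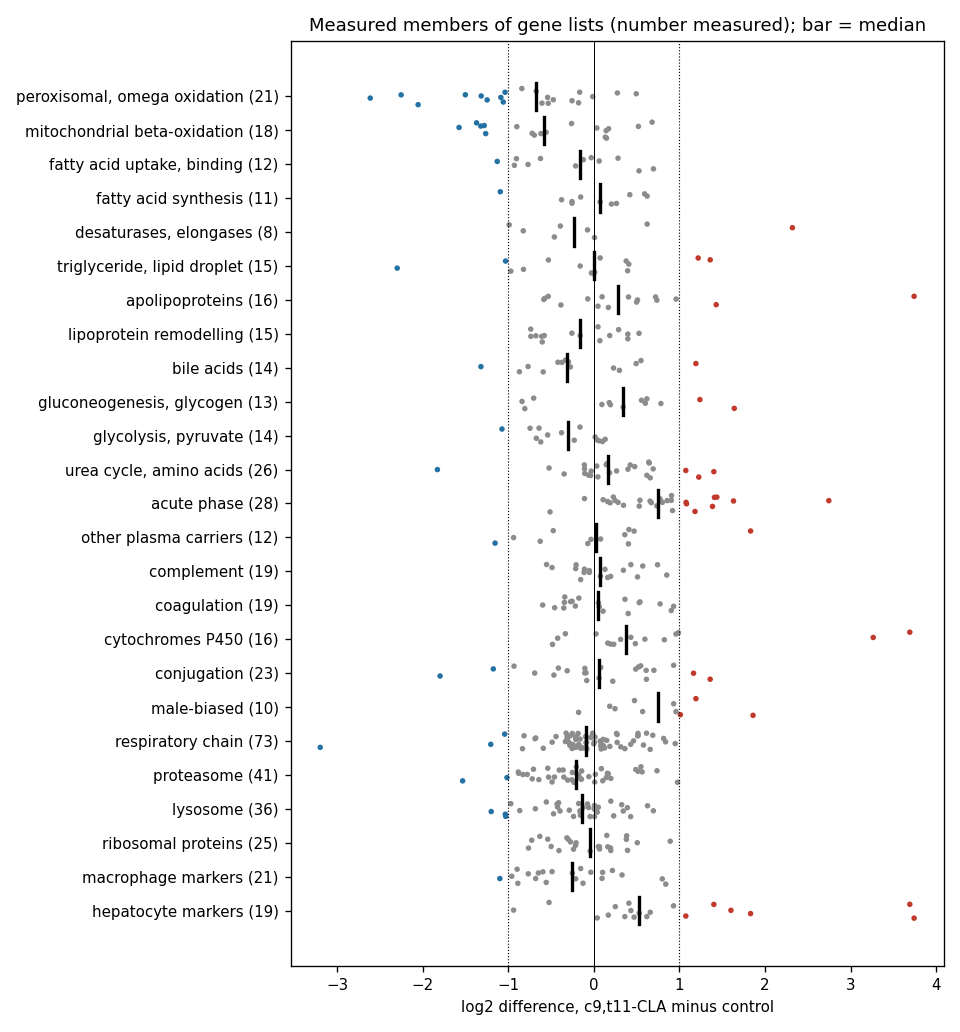
Log2 difference of c9,t11-CLA from control (x axis) for the measured members of 25 gene lists (y axis, number measured in brackets), 1 point per gene, with the median as a bar and dotted lines at 2-fold. The medians of both oxidation lists, -0.67 and -0.59, lie left of the others, and those of the acute phase, male-biased and hepatocyte lists, 0.75, 0.75 and 0.53, lie furthest right.

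Acute phase genes were higher on c9,t11-CLA. Of 28 measured genes, 8 were at least 2-fold higher, against 2.98% of all measured genes, and none was 2-fold lower. The median was 0.75, against 0.02 over all measured genes. Against 52.2% of all measured genes, 26 of the 28 lay above 0. The exceptions were Crp, C-reactive protein, which is not a major reactant in mice, at -0.51, and the mannose-binding lectin Mbl2 at -0.11. Of the 7 members with a mean signal above 40000, where most genes were higher, all lay above 0, with a median of 0.92. Of the 21 at or below it, 19 lay above 0, with a median of 0.74. After a lowess correction for brightness the median of the whole list was 0.69, with 5 genes at least 2-fold higher. Each local fit used a share of 0.4 of the probe sets, so a rise confined to the brightest genes may remain in part. The 4 measured neutrophil markers, Lcn2 among them, also lay above 0, with a median of 0.68.

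The major reactants were led by haptoglobin, Hp, which binds free haemoglobin, with 9575 on control, 64189 on c9,t11-CLA and 7859 on t10,c12-CLA. Serum amyloid P, Apcs, the main acute phase pentraxin of mice, gave 7860.3, 21273 and 7106. In both genes the control and t10,c12-CLA arrays were close and the c9,t11-CLA array alone was high. Saa2, a serum amyloid A that travels on high-density lipoprotein, gave 34945, 108255 and 51650.3, and a second probe set differed from control by 2.58. The pseudogene probe set Saa-ps, which a related transcript may also bind, gave 408, 2613 and 407. Saa3 and Saa4 differed less, at 0.35 and 0.74.

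A second pattern was high on both CLA arrays. Orm2, an orosomucoid, gave 5839.8 on control, 15502 on c9,t11-CLA and 18891 on t10,c12-CLA, and Lcn2, the iron-sequestering lipocalin, gave 11679, 30522 and 29619. A second probe set of Lcn2 differed from control by 0.65 on c9,t11-CLA. Orm1, whose sequence is close to that of Orm2, stood at 0.19. Both CLA differences rest on the same control array.

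Metal-binding and protease-inhibitor reactants completed the list. The metallothioneins Mt1 and Mt2, which hold zinc and copper, gave 44111 and 32769 on control and 93365 and 74325 on c9,t11-CLA. Ceruloplasmin, Cp, the copper ferroxidase, gave 27790.1, 52137 and 46013. The inter-alpha-trypsin inhibitor chain Itih4 gave 19714, 41586 and 17072, and the serpin Serpina3n 34119, 64490.3 and 37597. The fibrinogen chains Fga, Fgb and Fgg stood at 0.53, 0.77 and 0.54, all above 0 and none at 2-fold. Hepcidin, Hamp, the iron-regulating hormone, stood at 0.28.

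Upstream components of the response were modest or dim. Cebpb, a C/EBP factor induced in inflammation, gave 8864 on control and 17553 on c9,t11-CLA, just under 2-fold, and Cebpd stood at 0.69. Socs3, the feedback inhibitor of interleukin-6 signalling, lay above the floor on c9,t11-CLA alone, with 806 against 345. Il1rn, the interleukin-1 receptor antagonist, gave 598 and 1119, and the lipopolysaccharide receptor Cd14 1562 and 2718, with 4495 on t10,c12-CLA.

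**Figure D4:**
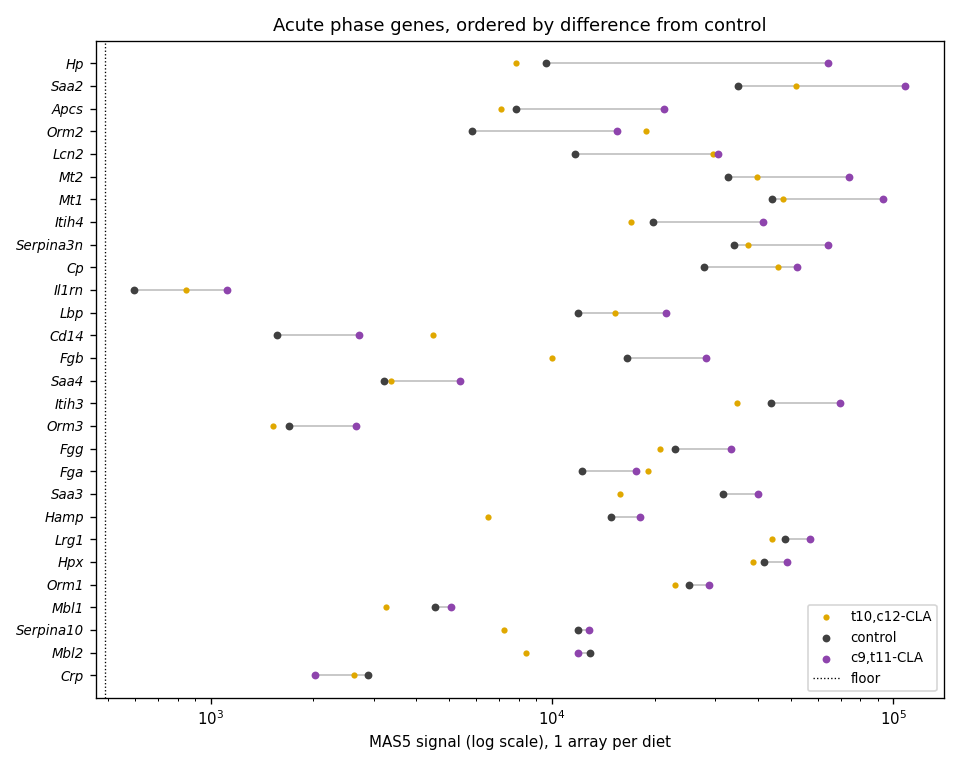
MAS5 signal (x axis, log scale) of the 28 measured acute phase genes on each of the 3 arrays, 1 point per array, ordered by the log2 difference of c9,t11-CLA from control, with the floor dotted. The purple c9,t11-CLA point lies right of the black control point in 26 genes, with the widest gap for Hp at the top.

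C/EBP factors bind TTGCGCAA and close variants in acute phase promoters. With 1 mismatch allowed, on either strand, this motif occurred in 9 of the 21 acute phase genes with a single RefSeq window, 42.9%, against 8.50% of the measured genes and 6.01% of all windows. The list was made of genes known to respond in inflammation, so this share describes the genes and not the diet. The 9 matches are shown with 10 bases on either side, along the gene strand, which is minus for Fgb, Lcn2, Saa3 and Saa4 and plus for the rest, with the matched bases in capitals.
Fga, chr3:83026008-83026035: ctacagagaaTTGAGCAAgagtttctgg
Fgb, chr3:83049926-83049953: tgggaagatgTTGCTCAAatgataaagc
Fgg, chr3:83007690-83007717: gcttaaacctGTGCGCAAaatctgggaa
Lcn2, chr2:32387938-32387965: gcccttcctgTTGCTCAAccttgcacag
Orm2, chr4:63362319-63362346: agagaacattTTGCGCAAgacatttccc
Orm3, chr4:63356027-63356054: agggaacattTTGCACAAgacatttatc
Saa2, chr7:46751640-46751667: tgtgctcccaTTGCACAAtgagggaaaa
Saa3, chr7:46715833-46715860: aatgcctagaTGGCGCAAtctggggaaa
Saa4, chr7:46732638-46732665: ccaggaaggaTTGAGCAAgagggactct
Orm2 alone held the motif without a mismatch, and all 9 genes had log2 differences above 0, from 0.35 for Saa3 to 1.63 for Saa2. Of all 28 measured acute phase genes 26 lay above 0, so this does not set the genes with the motif apart. Orm2 and its neighbour Orm3 held the motif at nearly the same distance from the start, and stood at 1.41 and 0.66. Of the 8 acute phase genes that were 2-fold higher, 7 had a window and 3 of these held the motif. The exact STAT type motif occurred in 1 of the 21 windows. The window of Apcs held none of the 4 motifs.

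The whole window of Saa2 (chr7:46751583-46751882, plus strand) is shown as that of the acute phase gene with the largest difference for which the table holds one. The capitals mark the C/EBP type match and, downstream of it, a DR1 match with 2 mismatches.
Saa2: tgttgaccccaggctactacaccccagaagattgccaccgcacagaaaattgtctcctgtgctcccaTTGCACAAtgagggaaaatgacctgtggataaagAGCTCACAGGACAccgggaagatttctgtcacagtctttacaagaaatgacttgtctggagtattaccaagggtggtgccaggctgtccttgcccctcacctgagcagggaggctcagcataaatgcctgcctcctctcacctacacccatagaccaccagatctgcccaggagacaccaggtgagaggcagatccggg

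Plasma proteins outside the acute phase did not move as a block. Of 12 carriers and negative reactants, which decline or stay level in inflammation, 6 lay above 0 and 6 below, with a median of 0.02, or -0.26 after quantile normalization. Albumin, Alb, gave 28437 on control, 101163 on c9,t11-CLA and 31244 on t10,c12-CLA. Transthyretin, Ttr, a carrier of thyroid hormone that declines in the acute phase, gave 17983, 9385 and 21645. Serpina6, the corticosteroid-binding globulin, gave 22603, 10151 and 10296, but another probe set differed from control by 0.39. Alb and Ttr, which both decline in the acute phase, thus lay on opposite sides of control on the c9,t11-CLA array.

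None of 19 complement genes and none of 19 coagulation genes reached 2-fold, with medians of 0.08 and 0.05. The complement component C9 was the highest of its list at 0.85, and Masp1, a protease of the lectin pathway, the lowest at -0.55. Plasminogen, Plg, had the highest signal of each array, with 70778, 135007 and 71111, and prekallikrein, Klkb1, stood at -0.60. Of 14 serpins, the alpha-1-antitrypsin gene Serpina1b gave 25750.1 and 78128, and Serpina1c 48952 and 92748. These near-identical genes share sequence, so their signals cannot be assigned with certainty.

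Cytochromes P450 of foreign-compound metabolism were higher for a few members. Of 16 measured genes 13 lay above 0 and 2 were at least 2-fold higher, with a median of 0.37, which was 0.17 after quantile normalization. Cyp2e1, the ethanol- and ketone-inducible enzyme, gave 3022 on control, 39035 on c9,t11-CLA and 13411 on t10,c12-CLA. Cyp2b10, the classical target of the receptor CAR, gave 1428, 13715 and 3056. For both, c9,t11-CLA was the highest and control the lowest of the 3 arrays. Cyp3a11, a target of PXR, stood at 0.43, Cyp1a2, a target of the aryl hydrocarbon receptor, at 0.16 and Cyp2c29, a further CAR target, at 0.31. CAR itself, Nr1i3, stood at -0.23, and PXR, Nr1i2, was above the floor on c9,t11-CLA with 1449.9 but not on control with 172.

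The promoter window of Cyp2e1 (chr7:140763569-140763868, plus strand) held TATAAA, in capitals, and none of the other motifs. TATAAA occurred in 20.0% of the 85 windows of genes at least 2-fold higher, in 9.76% of the 82 of genes at least 2-fold lower, and in 8.82% of those of all measured genes.
Cyp2e1: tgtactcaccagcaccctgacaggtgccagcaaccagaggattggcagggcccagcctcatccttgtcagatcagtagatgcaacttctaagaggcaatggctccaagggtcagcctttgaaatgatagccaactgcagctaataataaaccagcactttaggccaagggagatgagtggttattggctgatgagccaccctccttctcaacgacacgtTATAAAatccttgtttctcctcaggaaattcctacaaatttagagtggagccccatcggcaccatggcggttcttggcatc

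Conjugating enzymes diverged within families. Among 23 genes 2 were at least 2-fold higher and 2 lower, with a median of 0.06. The glutathione transferase Gstm5 gave 9614 on control and 24649 on c9,t11-CLA, and 2 further probe sets differed by 1.08 and 1.33. Gstm2 gave 2661, 766 and 14642, but a second probe set differed by 0.15, and Gstm1 stood at 0.70 and Gstp1 at 0.93. The microsomal transferase Mgst3 gave 1593, 705 and 4335. The sulfotransferase Sult1d1 gave 3166 and 7095. Glutathione transferases of the mu class are close in sequence, so probe sets may share transcripts.

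A few genes of glucose output were higher on c9,t11-CLA. Over 13 genes of the gluconeogenesis and glycogen list the median was 0.34, with 10 above 0 and 3 below. At least 2-fold higher were 2, G6pc and Igfbp1, and the latter is also counted in the growth hormone and IGF list. G6pc, the last enzyme of glucose release, gave 9717 on control, 22925 on c9,t11-CLA and 33304 on t10,c12-CLA, and the insulin-repressed binding protein gene Igfbp1 gave 2996, 9339.5 and 17504. For both the order was control, c9,t11-CLA, t10,c12-CLA. Pck1, the cytosolic entry enzyme, gave 14473, 24906 and 12365, with c9,t11-CLA alone high, and the glucose transporter Slc2a2 stood at -0.84. Over 14 genes of glycolysis and pyruvate use the median was -0.30, or 0.01 over the 9 genes above a floor at the 75th percentile, with the phosphofructokinases Pfkm and Pfkl at -0.64 and -0.54 and Pgam1 at -0.62. Liver pyruvate kinase, Pklr, stood at -0.38. The muscle-type Pkm stood at -1.07, with a second probe set at 0.09.

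Of 26 urea cycle and amino acid genes, 3 were at least 2-fold higher and 1 lower, with a median of 0.17, which turned to -0.03 with equal array medians and -0.00 after quantile normalization. Hpd, the dioxygenase of tyrosine breakdown, gave 838 on control, 2215 on c9,t11-CLA and 1579 on t10,c12-CLA. The urea cycle enzyme Asl gave 1883, 4404 and 2949.5, with a second probe set at 0.22. Tdo2, which opens the tryptophan ring, gave 48341, 101775 and 53141, and a second probe set was at 0.57. The ornithine aminotransferase Oat ran the other way, with 31732, 8934 and 17885. Cps1, the first enzyme of the urea cycle, and Arg1, the last, stood at 0.66 and 0.65, both among very bright signals, and Ass1 between them at -0.52.

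Zonal markers, which distinguish hepatocytes near the portal tract from those near the central vein, were read with these results. Of 15 periportal markers 13 lay above 0 and 3 were at least 2-fold higher, with a median of 0.66, which was 0.17 after quantile normalization and 0.36 after lowess. Of 16 pericentral markers 8 lay above 0 and 8 below, with 1 at least 2-fold higher, Cyp2e1, and 4 lower. Those 4 were Oat, Gstm2, the aryl hydrocarbon receptor Ahr, with 1171 and 564, and the glutamate transporter Slc1a2, with 1084 and 539.6. Glul, glutamine synthetase, which is confined to the cells around the central vein, stood at -0.35. In whole tissue, fewer cells of a kind and less RNA per cell cannot be told apart.

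Male-biased liver genes, which depend on pulsed growth hormone, had a median of 0.75 over 10 genes, of which 9 lay above 0 and 3 were at least 2-fold higher, or 1 with equal array medians. After quantile normalization the median was 0.38. Besides Egfr and Mup5, the third was Cyp7b1, whose second probe set differed by 0.10, and Elovl3 was above the floor on control alone. Egfr, the epidermal growth factor receptor, gave 3368 on control, 12221 on c9,t11-CLA and 2800.4 on t10,c12-CLA. Hsd3b5, a male-specific steroid dehydrogenase, gave 7239, 10059 and 171, and Cyp2d9 3766, 7322 and 3032. The major urinary protein probe sets Mup3 and Mup5, which near-identical genes share, stood at 0.57 and 1.01. Mup3, Gstp1, Ces3a and Serpina1e lay among the very bright signals, where most genes were higher on c9,t11-CLA. Of 4 measured female-biased genes, Cyp2b10 was at least 2-fold higher and Cyp4a14 and Cyp4a10 2-fold lower, with a median of -0.42. Cyp17a1, also of that list, lay above the floor on c9,t11-CLA alone, with 1147 against 194 on control. Of 14 genes of the growth hormone and IGF axis itself, a list that also holds Egfr, 3 were at least 2-fold higher and none lower, with a median of 0.15, or -0.05 with equal array medians. Cish, a feedback inhibitor induced by STAT5, gave 500.4 on control, close to the floor, and 1234 on c9,t11-CLA. Socs2, a further one, stood at 0.15. The growth hormone receptor Ghr stood at -0.53, Igf1 at -0.55, Igfals at -0.62 and the binding proteins Igfbp2 and Igfbp4 at -0.58 and 0.70.

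Stress and growth-arrest genes included single wide gaps but no shared shift. Of 21 growth-arrest and mTOR genes 2 were at least 2-fold higher and 1 lower, with a median of 0.12, or -0.04 with equal array medians, and of 21 heat shock and immediate early genes 1 was higher, Btg2, which both lists hold, with a median of -0.03, or 0.02 after quantile normalization. Ddit4, an inhibitor of mTORC1 induced by stress and glucocorticoids, was below the floor on control at 381 and gave 4101 on c9,t11-CLA, at least 8.36-fold higher, and 3949 on t10,c12-CLA. Gadd45g, a growth-arrest and DNA-damage protein, gave 508, 3618 and 5143, with the control signal close to the floor. Btg2, an antiproliferative gene, gave 1793, 4053 and 4319. All 3 genes were high on both CLA arrays, which share the control array. Fkbp5, a glucocorticoid target, stood at 0.75, while Sesn1, a sestrin, gave 1205 and 523.

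The endoplasmic reticulum list had no gene past 2-fold among 24, or 2 lower with equal array medians. Its median was -0.08, which turned to 0.18 above a floor at the 25th percentile and to 0.06 without marked probe sets. Xbp1, a transcription factor of the unfolded protein response, stood at -0.97, Pdia3 at -0.71 and the chaperone Hspa5 at 0.18. The heat shock genes Hspa1a and Hspa1b were above the floor on control alone, with 779.9 and 1638 against 242 and 351. Of 12 clock genes, Clock gave 509 on control, close to the floor, and 1187 on c9,t11-CLA, and the repressor Cry2 671 and 1472. Dbp and Nr1d1, output and feedback genes with strong daily rhythms, stood at -0.36 and -0.03. Of 25 antioxidant and metal-binding genes, only Mt1 and Mt2 reached 2-fold.

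Housekeeping machinery stood near or slightly below 0. Over 73 genes of the respiratory chain the median was -0.09, with 3 at least 2-fold lower. Uqcc1, an assembly factor of complex III, gave 4887 on control, 533 on c9,t11-CLA and 2255 on t10,c12-CLA, the c9,t11-CLA signal being close to the floor. Uqcr10, a small subunit of the same complex, gave 19834, 8602 and 16479, and Ndufa2, of complex I, 7412, 3598 and 6069. The other 70 genes were all within 2-fold, 42 of them below 0.

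The proteasome, which degrades tagged proteins, had a median of -0.21 over 41 genes, with 27 below 0 and 2 at least 2-fold lower. Psmd1, a scaffold subunit of its regulatory particle, gave 7048, 2434 and 11352, and the deubiquitinase Psmd14 gave 2555, 1263 and 1314. The inducible immunoproteasome subunits Psmb8, Psmb9 and Psmb10 stood at 0.74, 0.20 and 0.55, and the constitutive subunits that they replace, Psmb5, Psmb6 and Psmb7, at -0.88, -0.14 and -0.21. Ribosomal proteins had a median of -0.04 over 25 genes and lysosomal genes one of -0.14 over 36. Among the latter the tetraspanin Cd63 gave 2877, 1252 and 4498 and arylsulfatase A, Arsa, 1443, 707 and 3247. The c9,t11-CLA array was the lowest and the t10,c12-CLA array the highest for both.

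The tissue label was checked against hepatocyte markers, and all 19 on the array were measured. Their median log2 difference was 0.53, with 17 above 0 and 6 at least 2-fold higher, and it was 0.29 after quantile normalization. Several of them are plasma proteins or enzymes described above. The hepatocyte regulators Hnf4a and Cebpa stood at 0.93 and 0.04, and the asialoglycoprotein receptor chains Asgr1 and Asgr2 at 0.25 and 0.41.

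Markers of other cells lay on both sides of 0. Of 33 macrophage and Kupffer cell markers on the array 21 were measured, 15 of them below 0, 1 at least 2-fold lower and none 2-fold higher, with a median of -0.25, while 7 lay below the floor on both, Marco and Ptprc among them. The summed signal of the 33 was 128233 on control, 100555 on c9,t11-CLA and 159064 on t10,c12-CLA. Lgals3, galectin-3, gave 3899.9, 1820.4 and 3099.8, Cd5l, a macrophage apoptosis inhibitor, 13499, 7289.7 and 14278, and lysozyme, Lyz2, 16171, 10087 and 11939. In these 3 genes the c9,t11-CLA array was the lowest. The defining Kupffer cell gene Clec4f ran the other way at 0.84, and Adgre1, the F4/80 antigen, and Csf1r stood at 0.22 and 0.33. The markers thus did not move together.

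Stellate cell and fibroblast markers had a median of 0.05 over 19 genes. Timp1, an inhibitor of matrix proteases, gave 1717, 777 and 2266 on control, on c9,t11-CLA and on t10,c12-CLA, and Tagln, a smooth muscle protein, 1066, 527 and 1089. The collagen genes Col1a1 and Col1a2 stood at 0.05 and -0.21, and Col3a1 was above the floor on control alone, with 695 against 335. None of 7 measured endothelial markers reached 2-fold. Of 16 neutrophil markers 4 were above the floor on c9,t11-CLA alone. Of all 8251 genes, 611 were above it on c9,t11-CLA alone and 378 on control alone. Another 4 neutrophil markers were measured, and all lay above 0, with a median of 0.68. They were Lcn2, which hepatocytes also make, Elane, neutrophil elastase, at 0.76, Csf3r, the receptor of granulocyte colony-stimulating factor, at 0.60, and S100a8 at 0.33. The summed signal of the 16 was 18011 on control, 40193 on c9,t11-CLA and 36691 on t10,c12-CLA, and 6332, 9671 and 7072 without Lcn2. The granule gene Mpo and the surface marker Ly6g were below the floor on both. The part of neutrophil RNA in the acute phase difference was not tested. Of 21 lymphocyte markers on the array 5 were measured, all above 0 and within 2-fold, with a median of 0.34, while the B cell receptor genes Cd79a and Cd79b were above the floor on control alone. Of 17 pancreatic and gut genes on the array, 6 were measured, 6 lay above the floor on 1 of the 2 arrays and 5 on neither. Among the bright ones, the elastase Cela1 gave 3759, 3506 and 3120.1 and Ctrb1 2296, 1945 and 2558. Pecam1, an endothelial marker, was above the floor on c9,t11-CLA at 1019.7 and below it on control at 182. The part of cell composition in the differences above was not tested.

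Antigen presentation and interferon genes showed no shared large shift. Over 28 genes of antigen presentation the median was 0.16, or -0.03 with equal array medians, and 3 were at least 2-fold lower, H2-D4, H2-M3 and H2-DMb1. All 3 rest on probe sets marked for possible cross-hybridisation, and none was 2-fold lower among the 17 genes left without such probe sets. H2-D4 gave 3575, 867 and 3436. The classical class I genes H2-K1 and H2-D1 stood at 0.48 and 0.47, and the peptide transporter Tap1 at 0.53. Of 17 interferon-stimulated genes the regulator Irf7 gave 955 and 1915, with a second probe set at 0.41, and Isg15 stood at -0.72.

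Some wide gaps belonged to genes that are not typical of liver or had 1 signal under the floor. Tff3, a trefoil peptide of mucous epithelia, gave 821 on control, 5219 on c9,t11-CLA and 244 on t10,c12-CLA. Nppa, the precursor of atrial natriuretic peptide, gave 509, 2911 and 955, with the control signal close to the floor. The heart and muscle marker list that holds Nppa had 23 genes on the array, of which 15 lay below the floor on both arrays. Another 4 were above the floor on 1 array only. The 4 measured lay above 0, from 0.14 to 2.52 for Nppa, the only 1 past 2-fold. The summed signal over the 23 genes, Nppa included, was 5652 on control, 10568 on c9,t11-CLA and 5638 on t10,c12-CLA. Krtap5-1, a keratin-associated protein, gave 3849, 690.2 and 3058, and Btbd1 2163, 591 and 1482. Snrp1c-ps2, a pseudogene entry with a marked probe set, gave 892, 3611 and 703. Tff3 and Snrp1c-ps2 were high on c9,t11-CLA alone, and Krtap5-1 and Btbd1 lowest there.

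Among genes above the floor on c9,t11-CLA alone, those with the highest bounds after Ddit4 were Saa-ps, Zfp787, Mapk8ip3 and Wfdc12. They were at least 5.33-fold, 4.30-fold, 3.59-fold and 3.50-fold higher, bounds taken from the brighter signal over the floor. Mapk8ip3 is a scaffold of JNK signalling and axonal transport, and Zfp787 rests on a marked probe set, beside which another differed by 0.15. Among genes above the floor on control alone, Dmbt1, a mucosal scavenger protein, was at least 7.67-fold lower and gave 165 on t10,c12-CLA. Next came 2210016F16Rik at least 5.03-fold, Krt81, a hair keratin, at least 4.99-fold, Gstm6 at least 3.84-fold and the homeobox gene Cux1 at least 3.68-fold lower. A second probe set of Gstm6 lay above the floor on both arrays and differed by -0.76.

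The size of a difference was less often shared by a second probe set than its direction. Among the genes past 2-fold, 34 had another measured probe set, which shared the direction in 23 and also passed 2-fold in 5. By brightness, the direction was shared in 10 of 12 bright pairs, 9 of 9 of middle brightness and 4 of 13 dim ones. The 2 further probe sets of Egfr gave 1.15 and 1.18 against 1.86, smaller but past 2-fold, and that of Myh9, non-muscle myosin, gave 1.84 against 1.83.

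**Figure D5:**
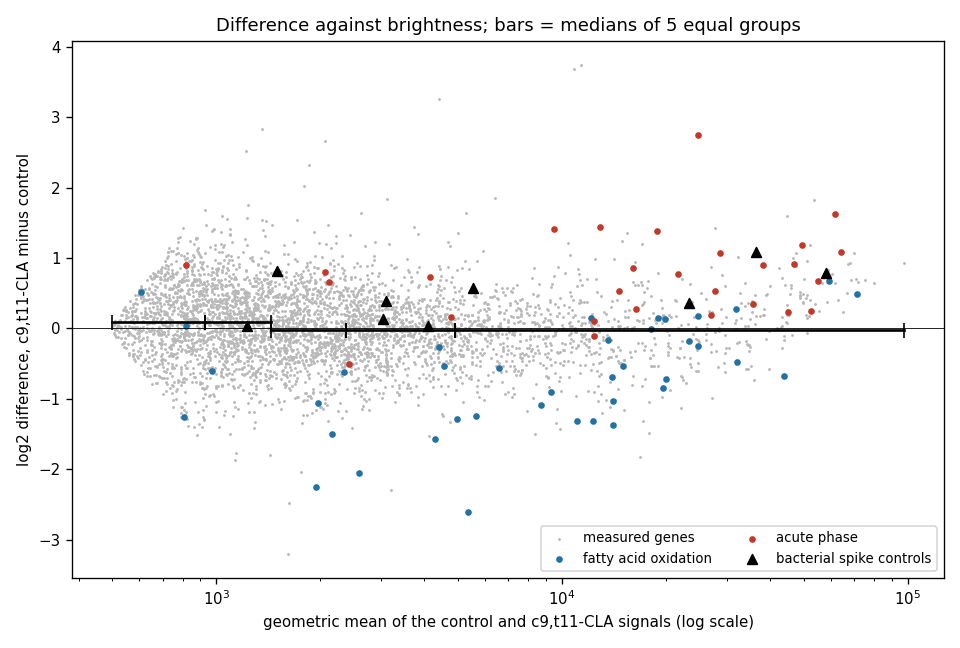
Log2 difference of c9,t11-CLA from control (y axis) against the geometric mean of both signals (x axis, log scale) for all measured genes, with fatty acid oxidation genes in blue, acute phase genes in red, bacterial spike controls as triangles, and the median of each of 5 equal groups of genes by brightness as a bar. These medians run from 0.10 in the dimmest group to -0.03 in the brightest, and above a mean signal of 40000 most points lie above 0.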

How the data were processed

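Liver RNA was hybridised to Affymetrix mouse arrays. The deposited values were MAS5 signals, per the submitters' processing notes, an intensity on a linear scale, from a software version not given in the sources used here. The trimmed mean (2% at each end) was equal on the arrays, so no further scaling was applied. Symbols came from the platform annotation, updated through RefSeq (GRCm38.p6), with 1 symbol for 10833 probe sets, several for 396 and none for 1193. The last 2 kinds and 66 array controls were left out. Where a gene had several probe sets, the one of highest average log2 signal was used. Differences are log2 ratios of the deposited signals, c9,t11-CLA over control, without pseudocount. A gene above the floor on 1 array is given as at least N-fold, from the brighter signal over the floor. Promoter windows came from RefSeq, and 3528 measured genes matched the table by symbol. The number of arrays limits the precision.

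The genes and gene lists were chosen with earlier results of these data known. Named genes were the 10 with the largest difference each way whose brighter signal was at least 2 times the floor, the 5 highest bounds each way, and per list up to 8 with the largest difference and up to 4 defining members. Others were chosen after their values were seen. Counting was tested on simulated data, with changes larger than 2-fold planted in bright genes and little noise added. That checks the code and not how reliable the counts are near 2-fold or near the floor. Python 3.11.15, numpy 2.4.6, pandas 2.3.3, statsmodels 0.14.6 and matplotlib 3.10.9 were used.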

Additional observations from a re-analysis of the deposited data

How the results depend on the processing

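With 1 array per diet, neither variation between mice nor any call on a single gene could be assessed. Equal array medians lowered the median of all measured genes by 0.18 and gave 74 genes at least 2-fold higher and 234 lower, while medians of the antigen presentation, solute carrier and amino acid lists became -0.031, -0.045 and -0.026. Lower and higher floors, at the 25th and 75th percentile, left 6186 and 2258 genes measured, against 4324 in the main setting. Of these 6186 and 2258 genes, 470 and 38 were at least 2-fold higher and 362 and 42 lower. These floors change only which genes are counted. The median of the peroxisomal and omega-oxidation list was -0.97 after quantile normalization, -0.89 after lowess, -0.54 above the higher floor and -0.84 with probe sets averaged. Quantile normalization gave medians of 0.17 for cytochromes P450, 0.38 for male-biased genes and -0.00024 for amino acid genes. The higher floor gave 0.40 for apolipoproteins, 0.12 for lipoprotein remodelling and 0.015 for glycolysis. The lower floor gave 0.57 for male-biased genes and 0.44 for cell cycle genes. The causes of the changes under the other alternatives were not tested. Medians of both oxidation lists stayed below 0 and that of the acute phase list above 0 under all 8 alternatives. Of 87 named genes at 2-fold or more, none reversed, and 585 of their 642 values under the alternatives were still 2-fold. A gene not measured under an alternative gave no value there. The floors leave each measured difference unchanged, and a pseudocount cannot change its direction. Averaging or dropping probe sets changes nothing for genes with a single unmarked one. Part of these values was therefore fixed in advance to repeat the main result. Many of these genes were named for their size, and the alternatives reprocess the same arrays, so these counts cannot show how well a difference would repeat. The floor is a pooled median and no detection call.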

Other observations

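Membrane transporters, the translation machinery and the cytoskeleton held single genes past 2-fold rather than shared shifts. Of 82 measured solute carriers 2 were at least 2-fold higher and 3 lower, and their median log2 difference of 0.15 turned to -0.05 with equal array medians. The higher ones were Slc38a5, an amino acid carrier, and Slc12a5, a chloride carrier best known from neurons. Slc38a5 gave 970.4 on control, 2056 on c9,t11-CLA and 1041 on t10,c12-CLA. Slc12a5 gave 501, 1059 and 374, with the control signal close to the floor. The lower ones were the carnitine carriers Slc25a20 and Slc22a5 and the glutamate transporter Slc1a2. Slc3a2, the heavy chain shared by several amino acid exchangers, stood at -0.94.

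Of 32 translation factors, 2 were at least 2-fold higher and 1 lower, with a median of -0.05. The elongation factor Eef1a1 gave 32889.5, 69048 and 34088 on control, on c9,t11-CLA and on t10,c12-CLA, Eif2d 1004, 2909.5 and 1329.9, and the cap-binding homologue Eif4e2 1399, 530.2 and 929.5. Of 23 cytoskeletal genes, with a median of -0.08, the non-muscle myosin Myh9 gave 1651, 5888 and 9742, and gelsolin, Gsn, which severs actin filaments, 2789.8, 1195 and 1769. Over 14 measured cell cycle genes the median was -0.28, but over the 25 above a floor at the 25th percentile it was 0.44. The mitotic kinase Plk1 gave 1097 on control and 2564 on c9,t11-CLA, while a second probe set differed by -0.47.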
